A study of Mus musculus with 8 samples.

Results

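The potassium channel genes of the primary motor cortex (M1) were compared between mice treated with *Fezf2 shRNA* and controls that received a *non-silencing shRNA*. They were taken as the protein-coding mouse genes with a symbol of the *Kcn* series, without the *Kcnip* genes, which encode cytosolic calcium-binding partners. Of 38031 genes with a counted transcript, 88 met this rule, and the 70 that exceeded 1 CPM (a count scaled to a common library total) in 4 or more libraries are described. Male Swiss Webster mice, wildtype at *Fezf2*, had been injected in M1 at postnatal day 21 to 25 with a lentivirus in which a rat *Synapsin I* promoter drives mCherry and an shRNA, and total RNA was taken at postnatal day 49 to 53. Both groups (4 libraries each) carried the virus, the promoter and mCherry, and differed in the shRNA. The tissue was dissected by its mCherry signal with all cortical layers and the meninges, so it held untransduced cells and cells that do not use this promoter. FEZF2 is a transcription factor of layer 5 pyramidal neurons, and the comparison asks which genes depend on it in the mature cortex.

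Potassium channels let potassium leave or enter the cell along its gradient and so set the resting potential, end the action potential and limit repetitive firing. Voltage-gated subunits (Kv) open on depolarization, calcium- and sodium-activated channels open after calcium or sodium entry, inward rectifiers hold the membrane near rest, and tandem-pore channels carry leak current. Auxiliary subunits change the gating or the surface level of the pore-forming ones. In cortical pyramidal neurons, Kv7 channels carry the M-current, which damps repetitive firing, and Kv4 channels carry the A-current of dendrites.

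The shRNA is shown first because a match to a channel transcript would bear on every later value. It was searched on both strands in all annotated transcripts, and the longest run of identical bases was kept for each gene. Capitals mark the matching run, and the second line is written as the reverse complement of the shRNA, the strand on which the match to *Kcnh7* lies.
*Fezf2*, whole shRNA matched: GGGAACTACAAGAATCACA
*Kcnh7*, 10 bases matched: tgtgATTCTTGTAGttccc
The shRNA is 19 bases long and matched *Fezf2* in full. Among the 70 channel genes the longest run was the 10 bases in *Kcnh7*, at chr2:62787798-62787807 of GRCm38. The *Kcnh7* transcript carries the reverse complement, so the shRNA strand that pairs with *Fezf2* does not pair with this run. A run of at least 10 bases was present in 1.43% of the channel genes and in 4.81% of all 55450 genes searched. In 13 other channel genes the longest run was 9 bases.

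The libraries held 54684016 to 58003814 counts when 1 transcript was counted per gene. *Fezf2* had 686, 775, 733 and 696 normalized counts in the control libraries and 622, 585, 573 and 585 in the *Fezf2 shRNA* libraries. The groups did not overlap (log2 fold change -0.29, SE 0.077; two-sided exact permutation p = 0.0286, the smallest that 4 against 4 allows), and the adjusted p of edgeR was 0.119. DESeq2 gave *Fezf2* a log2 fold change of -0.26 with its fold-change prior (DESeq2 adjusted p = 0.0404) and -0.28 without it (DESeq2 adjusted p = 0.0402). *Fezf2* spans 3.86 kb, and with the offset for genomic length described below its log2 fold change was -0.19 (SE 0.079, edgeR adjusted p = 0.459). Of the marker lists for neurons, oligodendrocytes, their precursors, astrocytes, microglia, vessel cells and striatal neurons, no gene tested passed the threshold used below. The 6 oligodendrocyte markers had the largest median log2 fold change in size, at -0.53, and their summed normalized counts ran from 61087 to 110159 in the controls and from 45856 to 75567 with *Fezf2 shRNA*; 4 of the 6 had an unadjusted p under 0.05 in edgeR. The part of these differences in the values of the channel genes was not tested. In bulk tissue, fewer cells of a type and less RNA per cell cannot be told apart.

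One threshold was used throughout, an adjusted p of at most 0.05 over all 16481 genes tested with a log2 fold change of at least 0.2 in size. With *Fezf2 shRNA*, 1 of the 70 channel genes increased (*Kcnq1*) and 0 decreased in edgeR's quasi-likelihood test, against 0.479% of all genes tested that increased and 0.0303% that decreased. An unadjusted p under 0.05 was found for 19 channel genes with a higher and 1 with a lower level, where all genes gave 9.75% and 6.13%. The 4 *Fezf2 shRNA* libraries lay above all 4 controls for 11 channel genes (6.23% of all genes) and below them for 1 (3.76%). DESeq2, fitted to the same genes, called 12 channel genes increased with its fold-change prior and 12 without it, and 0 decreased; of all genes it called 3.87% and 3.93% increased and 0.637% and 0.643% decreased. With the study's filter of 8 CPM, which left 55 channel genes, edgeR called 6 increased (1.96% of all genes) and 0 decreased (0.131%). The 12 are *Kcnq1*, *Kcnq3*, *Kcnq5*, *Kcnh1*, *Kcnh7*, *Kcnc2*, *Kcnd2*, *Kcnk10*, *Kcnma1*, *Kcnmb2*, *Kcnn2* and *Kcnt2*.

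**Figure D1:**
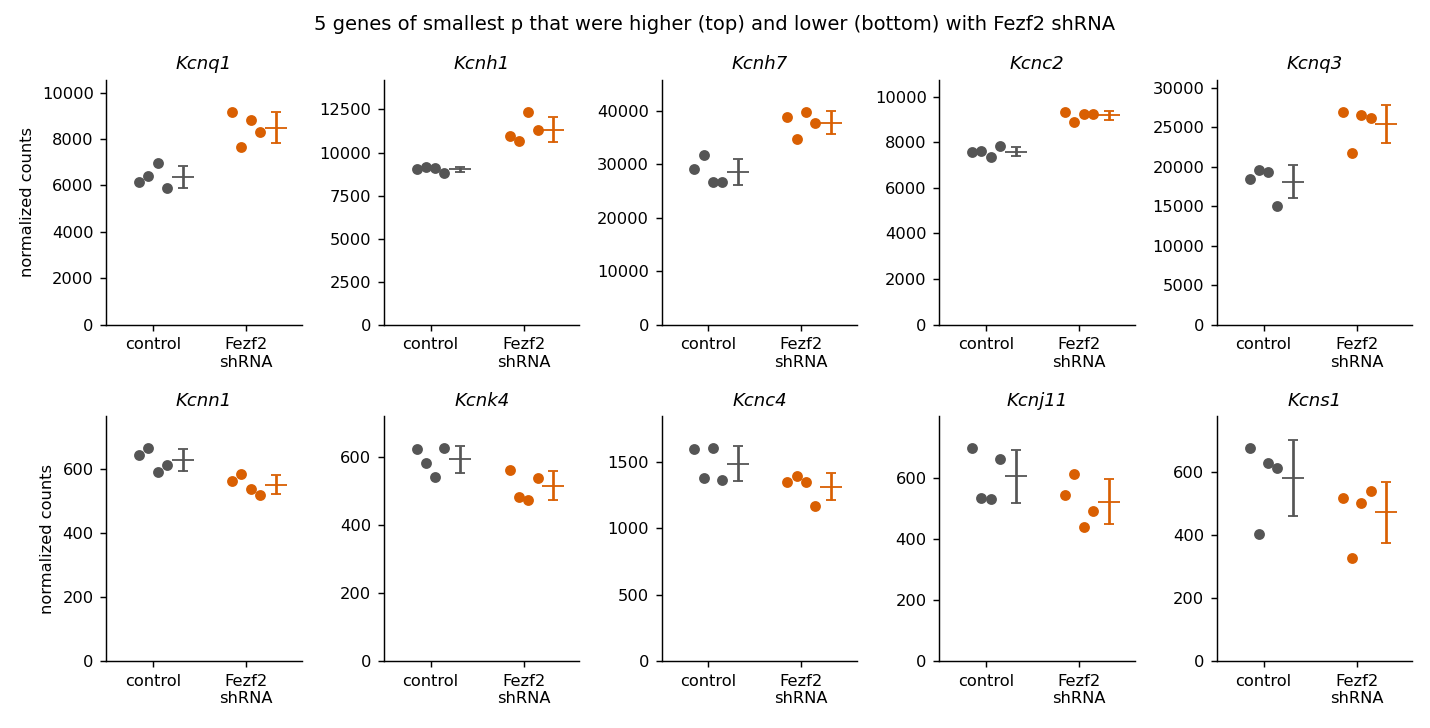
Normalized counts (y axis, from 0) in each control and *Fezf2 shRNA* library for the 5 channel genes of smallest p that were higher with *Fezf2 shRNA* (top row) and the 5 that were lower (bottom row), with the mean and SD of the 4 libraries of a group beside the points. In the top row the groups are apart in each gene, and in the bottom row only in *Kcnn1*.

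Among the Kv7 genes, all 5 had a log2 fold change above 0, with a median of 0.40, and 3 of them were higher without overlap between groups. These 3 (*Kcnq1*, *Kcnq3* and *Kcnq5*) span over 300 kb. Of all genes tested 6.23% were higher without overlap, and of all genes over 300 kb 46.7%. *Kcnq1* encodes a subunit best known from heart and epithelium, where it pairs with KCNE1. It had 6143, 6406, 6975 and 5878 normalized counts in the controls and 9180, 7641, 8816 and 8317 with *Fezf2 shRNA* (log2 fold change 0.42, SE 0.077; edgeR adjusted p = 0.0479). The lowest *Fezf2 shRNA* library lay above the highest control, and the call was close to the threshold: in 18 other settings the adjusted p ran from 6.74e-05 to 0.361 and passed in 7. The counted interval of *Kcnq1* (chr7:143107254-143427042, plus strand, GRCm38) is 0.947% exonic and encloses the antisense RNA gene *Kcnq1ot1* (chr7:143203458-143296549), whose reads fall in the same interval; no use of strand is stated for the counting. In 4 small counted features inside *Kcnq1ot1*, annotated on the plus strand like *Kcnq1* and so no separate reading of the antisense RNA, the density was 140 counts per kb, against 23.2 over the whole *Kcnq1* interval. The features are 119 to 460 bases long, too short for a density that can be set against that of the whole interval. Their summed normalized counts were 140, 103, 112 and 99.3 in the controls and 171, 160, 167 and 165 with *Fezf2 shRNA*. The groups did not overlap there either, and reads of *Kcnq1* and *Kcnq1ot1* cannot be told apart in this interval. The limit is wider than *Kcnq1*: 21 channel genes shared bases with another counted gene, 20 of them on the opposite strand. The share over all genes was not counted. Among them, *Gm26673* opposite *Kcna6* had a mean of 3238 counts, against 3508 for *Kcna6*. *Kcnab3os* had 492 against 1617 for *Kcnab3*, and *Gm26794*, at the 5′ end of *Kcnj3*, had 1491.5 against 9294.

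*Kcnq3* and *Kcnq5*, which encode M-current subunits, had larger counts. *Kcnq3* had 18417, 19554, 19372 and 15010 normalized counts in the controls and 26944, 21774, 26539 and 26135 with *Fezf2 shRNA* (log2 fold change 0.49, SE 0.101; edgeR adjusted p = 0.0587). *Kcnq5* had 20915, 22108, 23365 and 17932 in the controls and 31978, 27686, 25951 and 25428 with *Fezf2 shRNA* (0.40, SE 0.100; edgeR adjusted p = 0.1003). Both were higher in every *Fezf2 shRNA* library than in any control, and neither passed the threshold in edgeR.

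Of the 8 *Kcnh* genes (the EAG, ERG and ELK channels), 7 had a log2 fold change above 0, with a median of 0.15. *Kcnh1*, an EAG channel, had 9014, 9134, 9129 and 8805 normalized counts in the controls and 10945, 10684, 12371 and 11328 with *Fezf2 shRNA* (0.33, SE 0.065; edgeR adjusted p = 0.0516). *Kcnh7*, an ERG channel, had 29040, 31713, 26702 and 26689 in the controls and 38854, 34770, 39815 and 37687 with *Fezf2 shRNA* (0.40, SE 0.080; edgeR adjusted p = 0.0516). Neither gene overlapped between groups. Counts per kb are taken over the whole genomic interval, introns included, so they do not rank genes by expression. *Kcnh3*, an ELK channel of forebrain neurons and the family member with the most counts per kb (235), ran from 3853 to 4479 in the controls and from 3869 to 4407 with *Fezf2 shRNA*, so the groups covered nearly the same range (-0.05, SE 0.068; edgeR adjusted p = 0.753).

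The Kv2 to Kv4 genes and their silent modifier subunits were mixed, with 13 of 18 above 0 and a median of 0.09. *Kcnc2* encodes a Kv3 subunit of fast-spiking interneurons. It had 7580, 7611, 7350 and 7826 normalized counts in the controls and 9339, 8892, 9239 and 9224 with *Fezf2 shRNA* (0.27, SE 0.056; edgeR adjusted p = 0.0563), groups that lay well apart. *Kcnd2*, a pore-forming subunit of the dendritic A-current, had 18417, 19520, 19453 and 16063 in the controls and 26282, 21001, 22184 and 22568 with *Fezf2 shRNA* (0.33, SE 0.091; edgeR adjusted p = 0.132), again without overlap. *Kcnc4*, another Kv3 gene, had 1601, 1384, 1603 and 1365 in the controls and 1349, 1395, 1348 and 1169 with *Fezf2 shRNA*, with overlap (-0.18, SE 0.084; edgeR adjusted p = 0.327). The silent subunit gene *Kcns1* had 675, 403, 630 and 613 in the controls and 519, 327, 503 and 539 with *Fezf2 shRNA* (-0.30, SE 0.184; edgeR adjusted p = 0.437); in each group replicate 2 was the lowest. *Kcnf1*, also a silent subunit and the family's densest gene at 629 counts per kb, ran from 2787 to 3521 in the controls and from 2717 to 3313 with *Fezf2 shRNA* (-0.03, SE 0.091; edgeR adjusted p = 0.881).

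Of the 7 calcium- and sodium-activated channel genes, 6 were above 0, with a median of 0.28, and the seventh was the 1 channel gene whose groups did not overlap in the lower direction. *Kcnma1*, the pore-forming BK subunit, had 20985, 24370, 21127 and 18765 normalized counts in the controls and 25952, 26614, 30577 and 27482 with *Fezf2 shRNA* (0.38, SE 0.090; edgeR adjusted p = 0.0871). Its groups did not overlap. *Kcnn1*, a small-conductance calcium-activated channel, had 645, 665, 590 and 612 in the controls and 563, 585, 538 and 519 with *Fezf2 shRNA* (-0.19, SE 0.082; edgeR adjusted p = 0.296). Its relative *Kcnn2* had a log2 fold change of 0.33 (SE 0.100; edgeR adjusted p = 0.156), in the other direction. *Kcnt1*, a sodium-activated channel and the densest gene of the group, ran from 2220 to 3577 in the controls and from 2623 to 3130 with *Fezf2 shRNA* (0.02, SE 0.126; edgeR adjusted p = 0.945).

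The Kv1, inward rectifier and tandem-pore genes were centred near 0. Of the 6 Kv1 genes, which shape axonal excitability, 2 were above 0 and the log2 fold changes ran from -0.07 to 0.08. The 2.86 kb of *Kcna5* are 100% exon. *Kcna5* had the most counts per kb of all channel genes (3771) and ran from 9632 to 12397 in the controls and from 9448 to 11744 with *Fezf2 shRNA* (-0.01, SE 0.095; edgeR adjusted p = 0.962). Of the 11 inward rectifiers, 4 were above 0, with a median of -0.07. *Kcnj11*, the pore of ATP-sensitive channels, had 695, 533, 529 and 660 normalized counts in the controls and 543, 612, 440 and 491 with *Fezf2 shRNA* (-0.21, SE 0.129; edgeR adjusted p = 0.431), and *Kcnj9*, a G-protein-gated subunit, had 3422, 3295, 3859 and 4091 against 3443, 3435, 3293 and 3392 (-0.11, SE 0.075; edgeR adjusted p = 0.471). Both overlapped between groups. *Kcnj3* and *Kcnj6*, G-protein-gated subunits with long introns, had log2 fold changes of 0.21 and 0.31.

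Of the 10 tandem-pore genes, 6 were above 0, with a median of 0.03. *Kcnk10* had 1052, 1249, 1099 and 1044 normalized counts in the controls and 1396, 1455, 1499 and 1309 with *Fezf2 shRNA* (0.35, SE 0.079; edgeR adjusted p = 0.0755). *Kcnk9*, an acid-sensitive leak channel, had 722, 734, 725 and 624 against 773, 771, 856 and 834 (0.21, SE 0.082; edgeR adjusted p = 0.261). Neither overlapped between groups. *Kcnk4*, a mechanically gated leak channel, had 622, 582, 541 and 625 in the controls and 562, 483, 475 and 539 with *Fezf2 shRNA* (-0.20, SE 0.092; edgeR adjusted p = 0.316), and *Kcnk1*, the densest of the group, ran from 2280 to 3297 and from 2333 to 2782 (-0.11, SE 0.107; edgeR adjusted p = 0.632). Of the 5 auxiliary subunit genes, 3 were above 0, with a median of 0.03. *Kcnab3*, a Kv beta subunit and the densest of them, had 1795, 1460, 1788 and 1787 in the controls and 1410, 1076, 1752 and 1844 with *Fezf2 shRNA* (-0.17, SE 0.148; edgeR adjusted p = 0.600), while *Kcnmb2*, a BK beta subunit, had a log2 fold change of 0.44 (SE 0.129; edgeR adjusted p = 0.145).

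**Figure D2:**
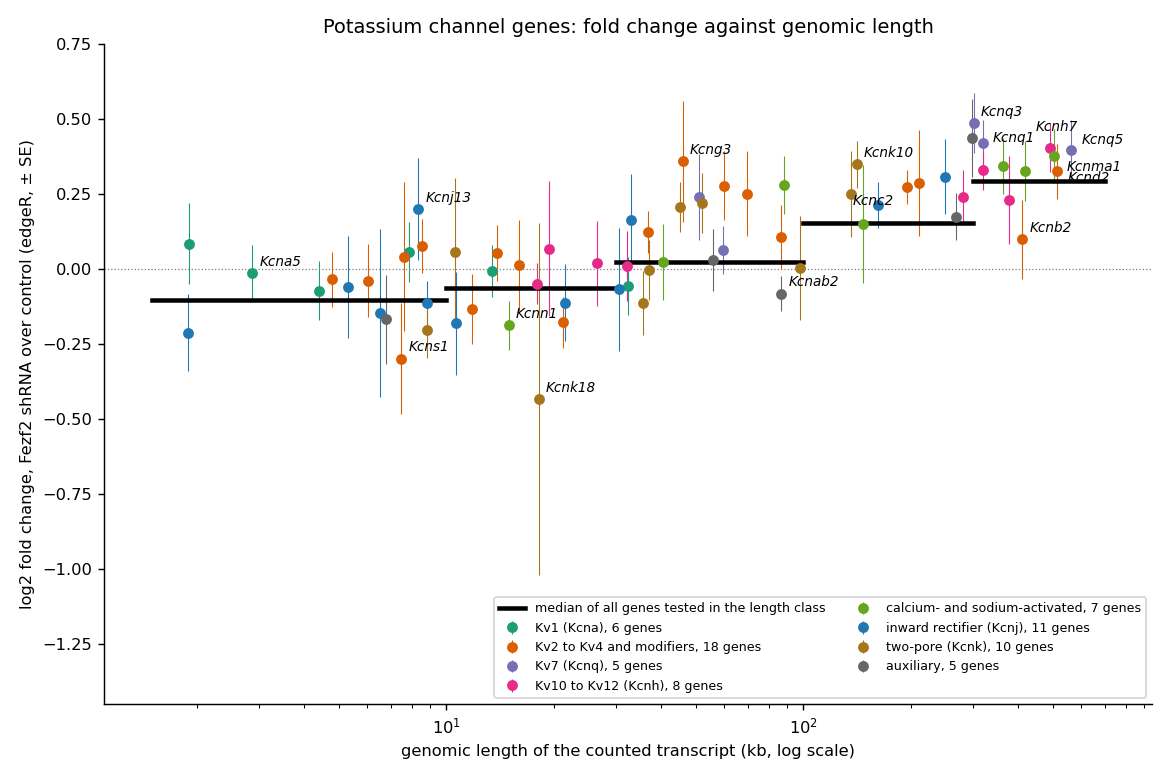
Log2 fold change with its SE (y axis) of the 70 channel genes against the genomic length of the counted transcript in kb (x axis, log scale), coloured by family, with black bars for the median of all genes tested in each length class. The 21 channel genes of 100 kb or more lie above 0, and the medians of all genes rise with length as well, from -0.10 under 10 kb to 0.29 over 300 kb.

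A log2 fold change above 0 was found for 46 of the 70 channel genes and for 44.3% of all genes. By the length of the counted interval, 5 of 16 channel genes were above 0 under 10 kb, 5 of 13 from 10 to 30 kb, 15 of 20 from 30 to 100 kb, 10 of 10 from 100 to 300 kb and 11 of 11 over 300 kb. By the counts of nested transcripts given below, reads were taken from the first to the last base of a transcript, over exons and introns alike. The sources used here do not state this. The log2 fold change rose with the length of that interval (Spearman's rho 0.767 over 70 channel genes and 0.430 over all 16481 genes). This is a description across genes of the same 8 libraries. *Kcnb2*, whose interval is in doubt as given below, was kept in these counts, and without it rho was 0.773 over 69 channel genes. The 16 channel genes under 10 kb had a median log2 fold change of -0.05, against -0.10 for all genes of that length. The 10 genes from 100 to 300 kb had a median of 0.26 against 0.15, and the 11 genes over 300 kb had 0.34 against 0.29. Of these 11, 8 were higher without overlap between groups, as were 46.7% of all genes over 300 kb. The median interval was 6.13 kb in Kv1, 10.7 kb in the inward rectifiers and 300.3 kb in Kv7.

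The length relation was present in each *Fezf2 shRNA* library. The median deviation from the control mean (log2) of 20 channel genes of 100 kb or more, without *Kcnb2*, was 0.43, 0.21, 0.34 and 0.29 in the *Fezf2 shRNA* libraries and 0.00, 0.08, 0.07 and -0.17 in the controls. The 29 channel genes under 30 kb had -0.07, -0.01, -0.08 and -0.08 with *Fezf2 shRNA*. In the controls they had 0.10, 0.08, -0.004 and -0.07, so the groups overlapped for the short genes. All 2061 genes of 100 kb or more had 0.21, 0.12, 0.22 and 0.18, so long genes were higher in these libraries whether or not they encode channels. A fit with an offset for genomic length in each library was therefore set beside the main one. It called 0 channel genes (0.00607% of all genes increased and 0.0121% decreased); 4 were higher and 1 lower at an unadjusted p under 0.05, where all genes gave 5.72% and 4.45%. With the offset 46 channel genes were above 0, against 46.7% of all genes, and 12 of the 70 changed sign. The 4 genes higher at that unadjusted p were *Kcnq3* at 0.25, *Kcnk10* at 0.20, *Kcnk9* at 0.18 and *Kcnq1* at 0.17, and the lower one was *Kcnab2*, at -0.17. *Kcnd2* had 0.03 under the offset. The median of the channel genes was 0.05 with the offset and 0.07 without it, against -0.01 and -0.03 for all genes.

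**Figure D3:**
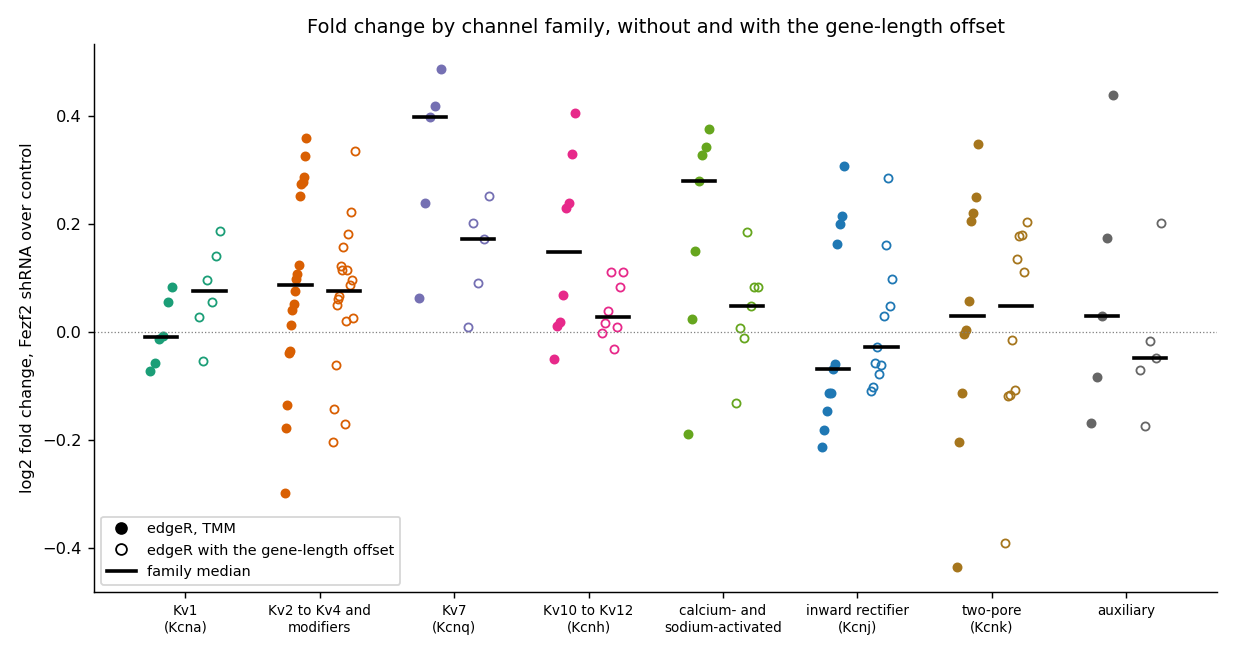
Log2 fold change (y axis) of each channel gene by family, from edgeR with TMM scaling (filled) and with the gene-length offset (open), with family medians as black bars. The Kv7 median moves from 0.40 to 0.17 and the median of the calcium- and sodium-activated genes from 0.28 to 0.05.

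Several genes could be divided, because nested transcripts of 1 gene were counted separately and the count of the inner one can be subtracted. Of 24 channel genes divided in this way, 12 gave parts that differed by at least 20 percentage points in their exonic share, a division made after the data were seen. In 11 of the 12 the log2 fold change was larger in the more intronic part, with medians of 0.25 for the intronic and -0.07 for the exonic parts, and *Kcna4* was the exception. In *Kcnq5*, the 3.76 kb at the 3′ end, all exon, had 2700, 2670, 2375 and 2369 normalized counts in the controls and 2658, 2550, 2294 and 2013 with *Fezf2 shRNA* (-0.09). The remaining 559 kb, 0.511% exon, had 18216, 19439, 20990 and 15563 in the controls and 29320, 25136, 23657 and 23416 with *Fezf2 shRNA* (0.45). The exonic counts overlapped between groups and the intronic counts did not. In *Kcnma1* the parts had -0.07 (0.701 kb of exon) and 0.39 (504 kb), and in *Kcnj3* -0.08 (3.81 kb) and 0.35 (158 kb). In these 3 genes the ratio of exonic to intronic counts was lower in all *Fezf2 shRNA* libraries than in any control (two-sided exact permutation p = 0.0286 each, the smallest possible, and 0.114 adjusted over the 12 genes). The intronic part was higher without overlap in 3 of the 12 genes (*Kcnq5*, *Kcnma1* and *Kcnt2*), and the exonic part in 0. These 3 intronic parts span 559, 504 and 364 kb, and 46.7% of all genes over 300 kb were higher without overlap. Other genes were not divided, so the counts of parts have no share over all genes beside them. The more exonic part held 46.2% exon in *Kcnj12* and 45.5% in *Kcnh2*.

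**Figure D4:**
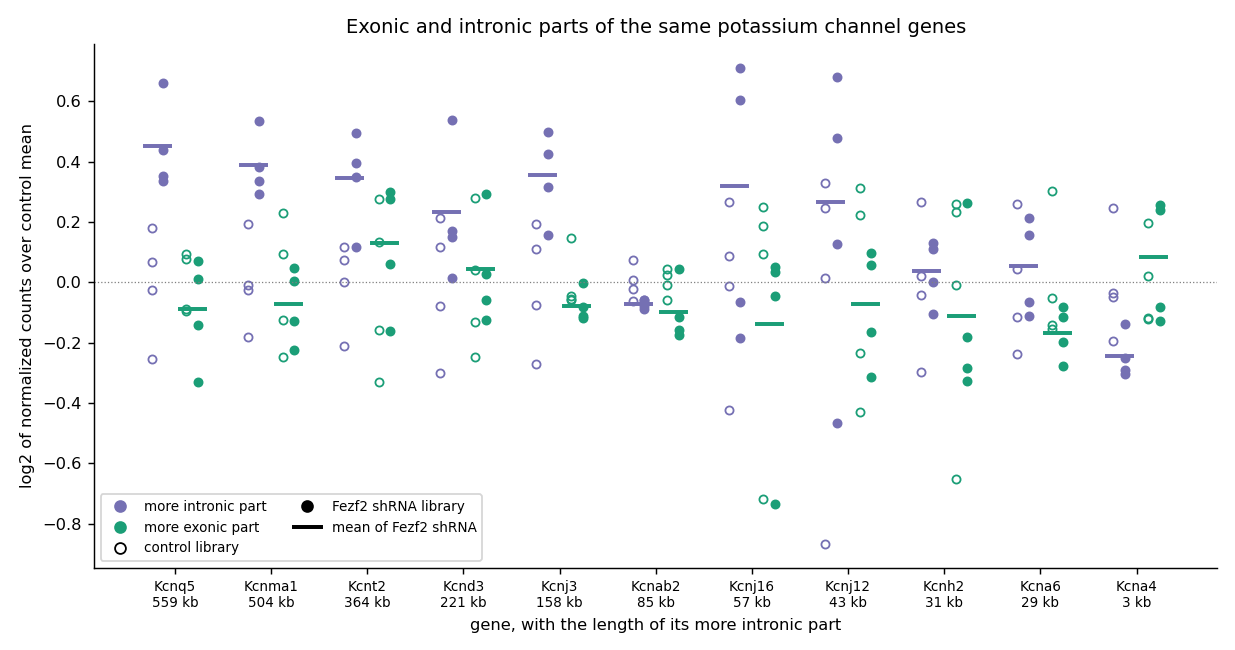
Log2 of the normalized counts over the control mean (y axis) in each library, for the more intronic (purple) and more exonic (green) part of 11 of these channel genes, with open points for controls, filled points for *Fezf2 shRNA* and a bar for the *Fezf2 shRNA* mean; genes are ordered by the length of the more intronic part. On the left the purple bars lie above the green ones, as in *Kcnq5* (0.45 against -0.09), and in *Kcna4* on the right the order is turned.

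Divided into a 5′ and a 3′ part, each at least 10% of the interval and without regard to exons, 13 genes had the larger log2 fold change in the 5′ part in 9 cases. The 3′ part held the larger share of exon in 12 of the 13, so that position and exon share cannot be told apart here. The 5′ 398 kb of *Kcnh7* had 17405, 19571, 17361 and 17610 normalized counts in the controls and 26757, 25000, 28146 and 25797 with *Fezf2 shRNA* (0.55). The 3′ 93.1 kb, 12.6% exon against 0.721% in the 5′ part, had a log2 fold change of 0.11, and the ratio of the parts differed between groups without overlap (two-sided exact permutation p = 0.0286, and 0.186 adjusted over the 13 genes). In *Kcnq5* the 5′ 495 kb had 0.51, and the 3′ 68.1 kb, which includes the 3.76 kb of exon given above, had -0.04 (exact permutation p = 0.0286, adjusted 0.186). *Kcnh1* had the other order, with 0.28 in the 5′ and 0.54 in the 3′ part (exact permutation p = 0.229).

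The transcript that stands for a gene mattered for *Kcnb2* and *Kcnma1*. The *Kcnb2* transcript of lowest number had 541, 510, 486 and 435 normalized counts in the controls and 559, 642, 498 and 413 with *Fezf2 shRNA* (0.10, SE 0.133; edgeR adjusted p = 0.749). Its other transcript, over nearly the same annotated interval, had a mean of 8859 counts and a log2 fold change of 0.60, so the annotated interval of the first was not the one counted. The widest *Kcnma1* transcript had a mean of 2159 counts, fewer than intervals it encloses, and a log2 fold change of -0.02.

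At the lower end of the list, *Kcnj8*, the pore of vascular ATP-sensitive channels, passed the filter with a mean of 0.879 CPM and over 1 CPM in 4 libraries. *Kcnj15* did not, with a mean of 0.793 CPM and over 1 CPM in 1 library. *Kcnk18* ran from 52.2 to 237 normalized counts in the controls and from 36.1 to 218 with *Fezf2 shRNA*, a range that makes its log2 fold change of -0.43 (SE 0.587) uninformative. The 18 genes under the filter include *Kcne1* to *Kcne4*, the auxiliary subunits that pair with KCNQ1 among others.

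The partner proteins of these channels were followed with a list of 17 genes, of which 15 were tested, and 0 passed the threshold in edgeR in either direction. At an unadjusted p under 0.05, 5 were higher and 0 lower, where all genes gave 9.75% and 6.13%. DESeq2 called 3 increased with and without its prior, against 3.87% and 3.93% of all genes. *Dpp6*, an auxiliary subunit of Kv4 channels, had 11045, 12126, 11886 and 10171 normalized counts in the controls and 15074, 14139, 13489 and 13583 with *Fezf2 shRNA* (0.32, SE 0.075; edgeR adjusted p = 0.0828). Its interval spans 909 kb, and with the length offset its log2 fold change was -0.04. *Amigo1*, a partner of Kv2 channels in a 5.44 kb gene, had -0.12 (SE 0.077; edgeR adjusted p = 0.464), and *Lrrc55*, a BK partner, had -0.12 (SE 0.108; edgeR adjusted p = 0.599). The median of the 15 was 0.09, and -0.03 with the offset.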

How the data were processed

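Total RNA of 8 M1 samples (4 *Fezf2 shRNA*, 4 *non-silencing shRNA*) was sequenced in paired-end runs. The deposited values are raw read counts per Ensembl transcript, which the authors made by adapter trimming, alignment with TopHat2 (2.1.1) to mm10 and BEDTools (2.26.0) multiCov; use of strand and of multiply aligned reads is not given in the sources used here. A further deposited table of DESeq2 output (base mean, fold change, p and adjusted p) was not used. Transcripts were matched to GENCODE M21 (91320 of 94647; the rest held 1.82% of counts), and the transcript of lowest Ensembl number stood for each gene. Genes above 1 CPM in 4 or more libraries were tested with edgeR 4.0.16 (TMM, quasi-likelihood, Benjamini-Hochberg, no covariate) in R 4.3.3; the study's filter was 8 CPM. Normalized counts are counts over the effective library size, times its mean, and spreads are over 4 libraries. The common biological coefficient of variation was 15.3%. DESeq2 1.42.0, a loess offset on genomic length (span 0.3), library totals, other filters, the widest transcript, a replicate block and leaving out each library were alternatives. The fits were tested on simulated counts with the same spread for every gene, smaller than the common one here. That test does not show how they behave on these data. Other steps used Python 3.11.15 with pandas 2.3.3 and scipy 1.17.1.

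The channel genes, partner and marker lists were chosen with earlier results of these data known. Genes chosen for library values were those past the threshold, the 5 of smallest p in each direction and the densest of each family. Density is in normalized counts per kb of genomic interval. *Kcna5*, *Kcnf1*, *Kcnh3*, *Kcnk1* and *Kcnt1* are given as the range of each group. *Kcnq5*, *Kcnma1*, *Kcnb2*, *Kcnk10*, *Kcnd2* and *Kcnk9* were added after their values were seen. 1 gene that this rule takes is not reported here. The study gives 4 animals per treatment, and each library was taken as 1 animal; the labels do not say so, and p-values measure the spread between these samples.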

Additional observations from a re-analysis of the deposited data

Results flagged for a closer look

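Each group of 4 libraries was checked for 26 genes, 52 groups in all. In 5 of them, 1 library lay far from the other 3 by Dixon's ratio, the gap to the nearest library over the group's whole range. Chance flags about 1 in 20 groups. *Kcnab3* in control replicate 2 had a ratio of 0.975, with 1460 normalized counts, and *Kcnh3* in the same library had 0.863, with 3853. *Kcnk9* in control replicate 4 had 0.893, with 624 normalized counts. In *Fezf2 shRNA* replicate 2, *Kcnq3* had a ratio of 0.843, with 21774 normalized counts, and *Kcns1* had 0.831, with 327. All 5 libraries were the lowest of their group for that gene.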

How the results depend on the processing

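The count of increased channel genes (1 in edgeR) was 12 with DESeq2 with and without its prior, 6 with the 8 CPM filter, 2 without a filter, and 0 with the gene-length offset, library totals, the widest transcript, the replicate block, or the block with the offset. Leaving out 1 library gave 0 to 6; it was 6 without control replicate 2. Increased genes overall (79) numbered 637 and 647 with DESeq2 with and without prior, 195 at 8 CPM, 35 with the widest transcript, 21 with library totals, 16 with the block, 1 with the offset and 1 with block and offset, and 0 to 214 with 1 library left out (214 without control replicate 2). Decreased genes overall (5) numbered 105 and 106, 13, 1, 1, 2, 2 and 1 in that order, 3 without a filter, and 1 to 10 with 1 library left out. Partner genes increased (0) numbered 3 and 3 with DESeq2. The cause of these shifts was not tested.

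Some directions turned among the genes chosen for library values. *Kcna5* (0.096 with the offset, 0.095 with block and offset), *Kcnf1* (0.062 and 0.066) and *Kcnb2* (-0.17 and -0.19) turned in these 2 fits. *Kcnt1* turned with library totals (-0.0095) and *Kcnma1* with the widest transcript (-0.023). Over all 70 channel genes the offset changed the sign of 12, *Kcnab1* (0.17 to -0.048) and *Kcnh8* (0.23 to -0.030) among them. With 1 library left out, *Kcna5* ran from -0.065 to 0.058, *Kcnf1* from -0.090 to 0.042, *Kcnb2* from -0.0085 to 0.20 and *Kcnt1* from -0.082 to 0.15. The labels give same-numbered libraries a shared number and do not say whether they were paired. Their deviations from the group means correlated at 0.24, 0.03, -0.03 and 0.08. *Fezf2 shRNA* replicates 1, 2 and 4 correlated best with the control of their own number, and replicate 3 with control replicate 2 (0.15). The replicate block changed no other call among the named genes than that of *Kcnq1* (edgeR adjusted p = 0.0748). For *Kcns1* the block moved the unadjusted p of edgeR from 0.133 to 0.0085 (adjusted p = 0.170). The SE was widest for *Kcnk18* (0.587) and *Kcnj8* (0.280), 2 genes of low counts.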

Other observations

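*Kcnip1*, which encodes a calcium-binding partner of Kv4 channels and is not in the channel list, had 1163, 1218, 1148 and 1279 normalized counts in the controls and 4998, 1445, 7795 and 1337 with *Fezf2 shRNA* (log2 fold change 1.70, SE 0.477; edgeR adjusted p = 0.134). The groups did not overlap, but 2 of the 4 *Fezf2 shRNA* libraries carried most of the difference and the others lay just above the controls.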
